A study of Mus musculus with 4 samples.

Results

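The genes described here are 57 protein-coding genes used to recognise germ cells, meiotic cells, oocytes and pluripotent cells. All 57 were found by gene symbol among the 55401 genes of the deposited table. They were measured by RNA sequencing in cultured cells labelled as female germline stem cells from the ovary of C57BL/6 mice. Cells received daidzein, a soy isoflavone, or the solvent DMSO, with 2 libraries per group. Dose and duration were not stated in the sources at hand. All cultures grew in serum with 4 added factors: epidermal growth factor, basic fibroblast growth factor, leukemia inhibitory factor, and the glial cell line-derived factor Gdnf. Whether replicates were separate cultures is not labelled. The p-values therefore reflect only how much these libraries vary, and that may be technical variation. Counts summed to between 16230400 and 18537134 reads per library.

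Germ cells arise in the embryo when Prdm1, Prdm14 and Tfap2c silence the somatic programme, and they then switch on RNA-binding proteins such as Ddx4, Dazl and Nanos3. In the ovary they enter meiosis before birth and become oocytes, which make the zona pellucida proteins and the growth factors Gdf9 and Bmp15. Cells described as female germline stem cells are usually recognised by Ddx4, Dazl, Ifitm3, Prdm1, Dppa3 and Pou5f1. In somatic cells many germline promoters are silenced by DNA methylation and by a repressor complex that holds Mga, Max and E2f6.

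Of the 57 genes, 31 had 0 reads in every library and 11 had 1 to 3 reads over the 4 libraries together. The other 15 had over 3 reads, and 10 of those had enough reads to test. No gene reached a mean of 1 FPKM (reads scaled to exon length and library total), and the highest mean was 0.882 FPKM, for Piwil2. The share with 0 reads was 54.4% of the 57, against 38.1% of all 21897 protein-coding genes of the table. At 1 FPKM or more stood 0 of the 57, against 41.1% of protein-coding genes. All 57 genes together took 419 and 418 reads in the daidzein libraries and 435 and 427 reads in the DMSO libraries. The 5 genes with the most reads, Piwil2, Zbtb16, Piwil4, Tert and Msh5, held 79.2% of these reads.

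**Figure D1:**
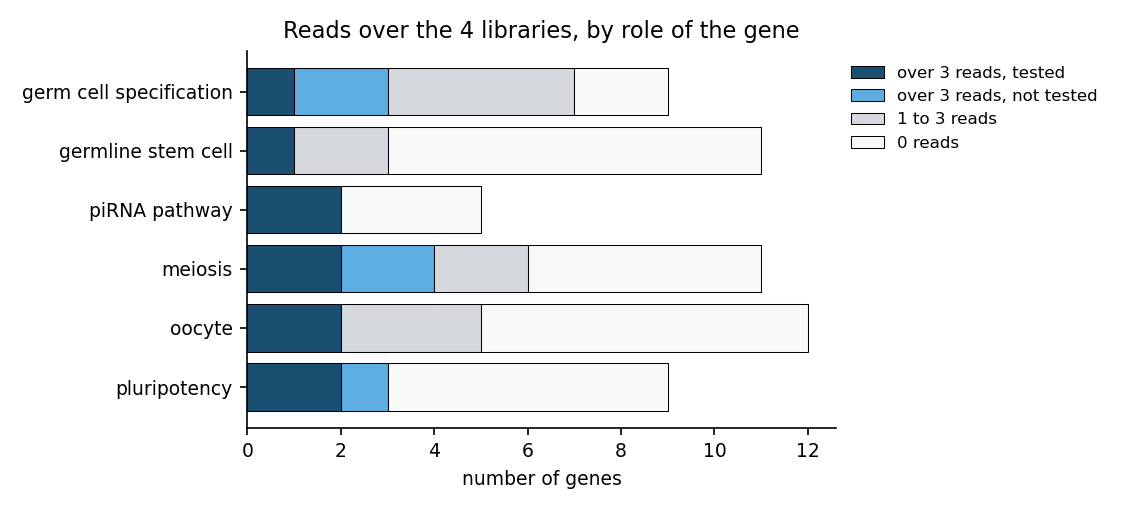
Number of genes (horizontal axis) in each role group (vertical axis), split by reads over the 4 libraries. Of 11 germline stem cell genes 8 had 0 reads, as did 7 of 12 oocyte genes, and 1 or 2 genes of each group could be tested.

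A count of 0 over the 4 libraries allows up to 3 reads, which is 0.0434 CPM (counts scaled to the library total). On the FPKM scale that limit ran from 0.00479 for the longest gene at 0, Lin28b, to 0.0520 for the shortest, Figla. Such limits cover counting error only. In a bulk culture, fewer cells of a type and less RNA per cell cannot be told apart.

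The 6 markers that define the labelled cell type were at or near 0. Pou5f1, the pluripotency factor Oct4, and Dppa3, a maternal factor that marks primordial germ cells, had 0 reads in every library. Ddx4, the germ cell RNA helicase, had 0 reads in both daidzein libraries and 2 and 0 reads in the DMSO libraries. Dazl, which promotes translation of germ cell messages, had 1 and 0 reads in the daidzein libraries and 0 in both DMSO libraries. Ifitm3, a membrane protein that also responds to interferon, had 1 and 0 reads in the daidzein libraries and 4 and 0 reads in the DMSO libraries. Prdm1, a repressor that also drives plasma cell differentiation, had 3 and 2 reads in the daidzein libraries and 1 and 2 reads in the DMSO libraries. Prdm1 was the one marker of the 6 seen in all 4 libraries, at 0.0207 FPKM on average. The data therefore go against the labelled cell type as far as these transcripts define it.

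The other genes of germ cell specification were low as well, except Dnd1. Tfap2c had 0 reads in every library. Prdm14 had 0 reads in both daidzein libraries and 0 and 2 reads in the DMSO libraries. Nanos3 had 1 and 0 reads in the daidzein libraries and 0 and 2 reads in the DMSO libraries. Dnd1, an RNA-binding protein needed for germ cell survival, had 20 and 19 reads in the daidzein libraries and 13 and 21 reads in the DMSO libraries. The Dnd1 groups overlapped. Its annotated exons overlap those of Wdr55 on the opposite strand over 140 bases, 5.8% of their length, and Wdr55 had 1840 to 2167 reads per library. The strand setting of the counting is not given, so reads in that stretch cannot be told apart.

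Of 11 germline stem cell genes, 8 had 0 reads in every library. These were Nanos2, an RNA-binding protein of male stem cells, Lin28a and Lin28b, which block let-7 maturation, the zinc finger factor Sall4, Id4, Bcl6b, and the helix-loop-helix factors Sohlh1 and Sohlh2. Utf1 had 1 read in daidzein replicate 2, and Uchl1, a ubiquitin hydrolase of spermatogonia and neurons, had 1 read in DMSO replicate 2. Zbtb16 stood apart from this group. Zbtb16 (ENSMUSG00000066687; GRCm38 chromosome 9, 48654297 to 48836222, minus strand) encodes PLZF, a factor that maintains spermatogonial stem cells and is also required by natural killer T cells. It had 67 and 86 reads in the daidzein libraries and 69 and 93 reads in the DMSO libraries, and the groups overlapped. Both libraries numbered 2 had more Zbtb16 reads than both numbered 1.

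In the piRNA pathway, which uses small RNAs to silence transposons in germ cells, the Argonaute proteins Piwil2 and Piwil4 had reads, while the other 3 of the 5 listed genes had none. Piwil2 (ENSMUSG00000033644) lies on the minus strand of GRCm38 chromosome 14 from 70372477 to 70429383. It had 67 and 83 reads in the daidzein libraries and 90 and 81 reads in the DMSO libraries. Piwil4 (ENSMUSG00000036912) lies on the minus strand of chromosome 9 from 14696230 to 14740740. It had 79 and 72 reads in the daidzein libraries and 81 and 69 reads in the DMSO libraries. Raw reads of the groups overlapped for both genes. Tdrd1 and Tdrd9, Tudor proteins that bind Piwi proteins, and Mael had 0 reads in every library. Piwil1, the third mouse Piwi gene, had 0 reads as well. Of other Tudor genes of the pathway, Tdrkh and Tdrd7 had more reads than any of the 57, while Tdrd5 and Tdrd6 had 0 reads in every library. Tdrkh, whose protein binds Piwi proteins on mitochondria, had 788 and 891 reads in the daidzein libraries and 757 and 833 reads in the DMSO libraries. Tdrd7 had 195 and 163 reads in the daidzein libraries and 166 and 203 reads in the DMSO libraries. Piwil4 shares 137 exonic bases with Gm10706 on the opposite strand, which had at most 1 read per library.

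**Figure D2:**
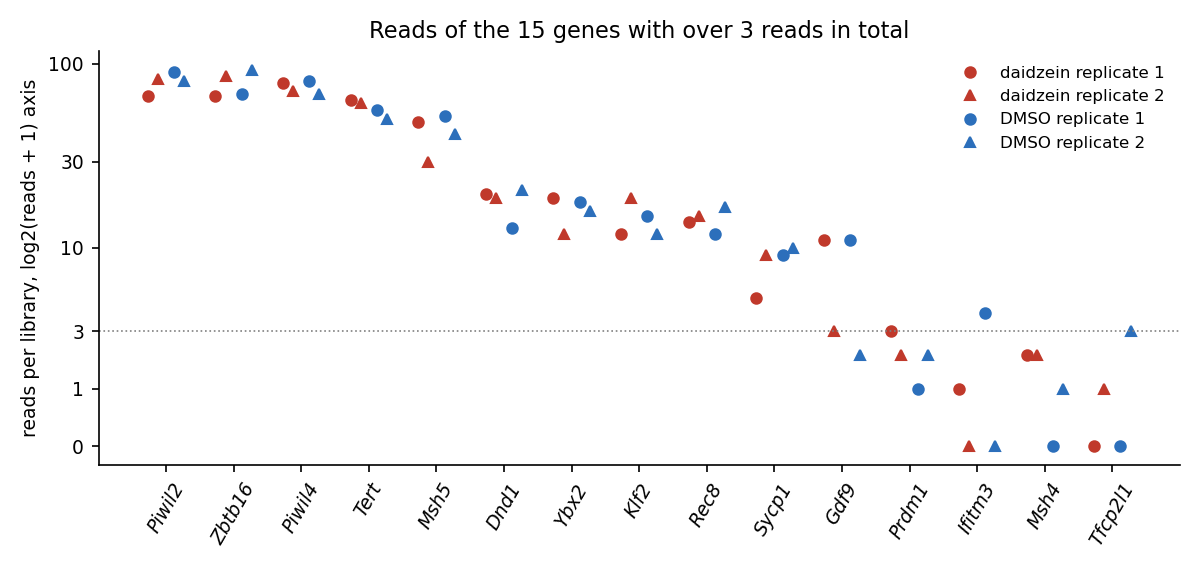
Reads per library (vertical axis, log2 of reads + 1, ticks in reads) for the 15 genes with over 3 reads in total (horizontal axis), daidzein in red and DMSO in blue, circles for replicate 1 and triangles for replicate 2, with a dotted line at 3 reads. Piwil2, Zbtb16, Piwil4, Tert and Msh5 lie between 30 and 93 reads in every library, and of these 5 only Tert has both daidzein points (64 and 62 reads) apart from both DMSO points (57 and 51 reads).

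Of 11 meiosis genes, 5 had 0 reads in every library, including genes that open the programme. Stra8, which is induced by retinoic acid at meiotic entry, had 0 reads in every library, as did Spo11, which cuts DNA to start recombination, the recombinase Dmc1, and the axis proteins Hormad1 and Sycp2. Sycp3, the other main axis protein, had 1 read in daidzein replicate 2. Its exons share 660 bases, 52.2% of their length, with Chpt1 on the opposite strand, which had 109 to 141 reads per library. Meioc, which sustains meiotic entry, had 1 read in daidzein replicate 2. Sycp1, the transverse filament of the synaptonemal complex, had 5 and 9 reads in the daidzein libraries and 9 and 10 reads in the DMSO libraries, below the filter for testing.

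Msh5 and Rec8 had the most reads among the 11 listed meiosis genes. Msh5 (ENSMUSG00000007035; GRCm38 chromosome 17, 35028605 to 35046745, minus strand), a MutS homologue that stabilises crossovers, had 49 and 30 reads in the daidzein libraries and 53 and 42 reads in the DMSO libraries. Msh4, its binding partner in meiosis, had 2 and 2 reads in the daidzein libraries and 0 and 1 reads in the DMSO libraries. Rec8 (GRCm38 chromosome 14, 55618037 to 55625395, plus strand), the meiotic cohesin subunit, had 14 and 15 reads in the daidzein libraries and 12 and 17 reads in the DMSO libraries. Per length, Msh5 averaged 0.461 ± 0.127 FPKM and Msh4 0.0103 ± 0.00777 FPKM (SD, n = 4 libraries each).

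Oocyte genes were at 0 for 7 of 12. The zona pellucida gene Zp2, the growth factor gene Bmp15, the transcription factors Nobox, Figla and Lhx8, Nlrp5, a maternal protein of the egg cortex, and the kinase gene Mos had 0 reads in every library. Zp1 had 2 reads in DMSO replicate 2, Zp3 had 3 reads in daidzein replicate 1, and Padi6, which is needed for egg cytoplasmic lattices, had 1 read in daidzein replicate 1. Gdf9, the oocyte growth factor that acts on granulosa cells, had 11 and 3 reads in the daidzein libraries and 11 and 2 reads in the DMSO libraries. Gdf9 therefore had the same 11 reads in replicate 1 of both groups and at most 3 in replicate 2 of both. Ybx2, which stores messages in oocytes and spermatids, had 19 and 12 reads in the daidzein libraries and 18 and 16 reads in the DMSO libraries, with overlapping groups.

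Of 9 pluripotency genes, 6 had 0 reads in every library: Pou5f1, Sox2, Nanog, Klf4, Zfp42 and Tdgf1. Tfcp2l1, a factor of naive embryonic stem cells, had 0 and 1 reads in the daidzein libraries and 0 and 3 reads in the DMSO libraries. Klf2, a zinc finger factor of naive embryonic stem cells that also keeps T cells quiescent, had 12 and 19 reads in the daidzein libraries and 15 and 12 reads in the DMSO libraries. Its relative Klf4 had 0. Tert (ENSMUSG00000021611; GRCm38 chromosome 13, 73626911 to 73649843, plus strand), the catalytic subunit of telomerase, had 64 and 62 reads in the daidzein libraries and 57 and 51 reads in the DMSO libraries. Tert is not specific to germ cells and is found in many dividing progenitors, those of blood included. Tert raw reads were higher in both daidzein libraries, while on the CPM scale the groups overlapped.

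Compared per length, the order of the mean levels over 4 libraries began with Piwil2 at 0.882 ± 0.129 FPKM, Zbtb16 at 0.862 ± 0.125 and Piwil4 at 0.811 ± 0.0950 (SD, n = 4 libraries). These 3 neighbours differed by less than their spread. Tert followed at 0.592 ± 0.0549 FPKM, with its highest library, at 0.650, below the lowest library of Piwil4, at 0.720. Ybx2, Msh5, Klf2 and Dnd1 had means of 0.504 to 0.437 FPKM and ranges that overlap one another. Rec8 came next at 0.286 ± 0.0369 FPKM, then Gdf9 at 0.197 ± 0.148 and Sycp1 at 0.135 ± 0.0371. The mean of Piwil2 exceeded that of 58.3% of all protein-coding genes, but of only 32.6% of those with a read.

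Between daidzein and DMSO, 0 of the 10 tested genes passed edgeR's quasi-likelihood test at a Benjamini-Hochberg adjusted p of 0.05. Over all 11700 genes tested the same rule called 2, or 0.0171%, so 0 of 10 is no result about these genes in particular. DESeq2 and limma called 0 of the 10 too. By edgeR 0 of the 10 had an unadjusted p under 0.05, against 2.91% of all genes tested. With the replicate number as a block edgeR also called 0 of the 10, against 27 genes (0.231%) of all tested. Without the block the edgeR adjusted p was 1.00 for each of the 10, and with it the adjusted p ran from 0.891 for Piwil2 to 0.997 for Gdf9. The normalised groups did not overlap for 1 gene, Piwil2, which was lower with daidzein, while 15% of all tested genes were lower without overlap.

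Piwil2 averaged 4.19 ± 0.379 CPM with daidzein and 5.14 ± 0.603 CPM with DMSO (SD, n = 2 each). The fold was 0.817 with a 95% interval of 0.608 to 1.10. Msh5, at 2.24 ± 0.889 CPM with daidzein and 2.86 ± 0.590 CPM with DMSO, had the lowest fold of the 10, 0.778, with an interval of 0.50 to 1.21. Zbtb16, at 4.27 ± 0.493 CPM with daidzein and 4.84 ± 0.811 CPM with DMSO, had a fold of 0.882 (0.649 to 1.20). All 3 intervals include 1.

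Piwil4 had a fold of 0.940 (95% interval 0.688 to 1.28). Tert, at 3.54 ± 0.294 CPM with daidzein and 3.25 ± 0.394 CPM with DMSO, had the highest fold, 1.09 (0.771 to 1.54). The genes with fewer reads had wider intervals, and the part of counting error in this was not tested. For Ybx2 the fold was 0.854 (0.447 to 1.63), for Rec8 0.935 (0.484 to 1.81) and for Klf2 1.07 (0.546 to 2.09). Dnd1 had 1.07 (0.586 to 1.96) and Gdf9 1.01 (0.318 to 3.18). The Gdf9 interval alone includes a 2-fold change in both directions. Those of Ybx2, Rec8 and Klf2 include it in a single direction. Of the 10, 4 were higher and 6 lower, with a median log2 difference of -0.09, beside -0.0028 over all genes tested.

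**Figure D3:**
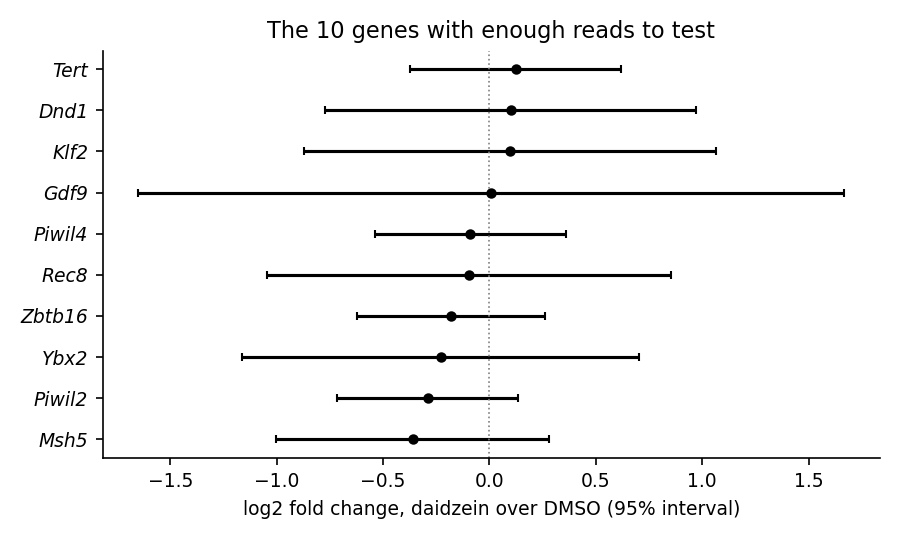
Log2 fold change of daidzein over DMSO (horizontal axis) with its 95% interval for the 10 tested genes (vertical axis). Every interval crosses 0, and the interval of Gdf9 is the widest.

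For untested Sycp1 the ratio of reads per depth, daidzein over DMSO, was 0.688, with a 95% interval of 0.319 to 1.45 (exact binomial, counting error only). For Prdm1 it was 1.56 (0.303 to 10.0). Ifitm3, Msh4 and Tfcp2l1 had 4 or 5 reads in total, and their intervals also include 1. Over the 26 genes with any read, edgeR without a filter on low counts called 0, with 11 called among 19575 genes (0.0562%).

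Further genes of the same processes, 105 in all, gave a more mixed picture than the 57. Of these, 56 (53.3%) had 0 reads and 21 (20.0%) reached 1 FPKM. Of 27 tested, edgeR called 0 at an adjusted p of 0.05, against 0.0171% of all genes tested. By direction, 11 were higher with daidzein and 16 lower. Among 25 further oocyte genes 18 had 0 reads and 0 reached 1 FPKM. The highest, Npm2, a chaperone of egg chromatin, had 8 and 16 reads in the daidzein libraries and 7 and 2 reads in the DMSO libraries. Of 28 further germ cell and piRNA genes, 11 were at 0, among them Gfra1, the receptor for the glial cell line-derived factor in the medium. Its signalling partner Ret had 7 and 12 reads in the daidzein libraries and 5 and 7 reads in the DMSO libraries.

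A few of these further genes were far above any of the 57. Tex19.1, which protects germ cells and placenta against transposons, stood at 53.8 ± 1.05 FPKM with daidzein and 53.8 ± 3.89 FPKM with DMSO (SD, n = 2 each). That is 61.0 times the mean of Piwil2. Syce2, a central element protein of the synaptonemal complex, stood at 40.0 ± 0.506 FPKM with daidzein and 39.6 ± 0.632 FPKM with DMSO. Its partners Syce1, Syce3 and Tex12 had 0 reads in every library. Psmc3ip and Mnd1, which together aid meiotic strand exchange, averaged 17.6 and 16.2 FPKM over the 4 libraries, while the recombinase they serve, Dmc1, had 0 reads.

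Kit, the stem cell factor receptor of germ cells, mast cells and blood progenitors, stood at 71.6 ± 3.23 FPKM with daidzein and 73.5 ± 0.508 FPKM with DMSO. Of 22 further pluripotency genes 14 had 0 reads, and the 3 that reached 1 FPKM, Myc at 185 FPKM, Rif1 at 9.57 and Stat3 at 8.37, are broadly expressed. Esrrb, Tbx3 and Nr5a2, factors of naive embryonic stem cells, were among those with 0 reads.

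**Figure D4:**
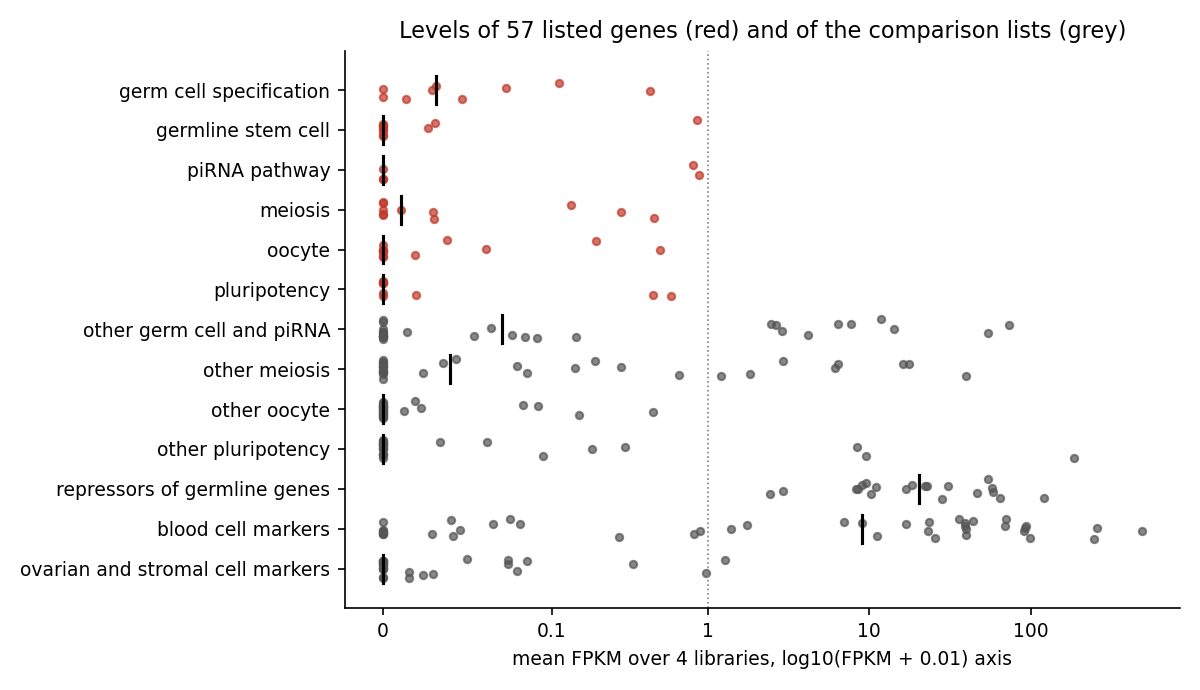
Mean FPKM over the 4 libraries (horizontal axis, log10 of FPKM + 0.01, ticks in FPKM) for each gene, by list (vertical axis), with the 57 genes in red, the comparison lists in grey, vertical ticks at list medians and a dotted line at 1 FPKM. All red points lie left of 1 FPKM, while the medians of the repressor list, 20.3, and of the blood list, 9.0, lie right of it.

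Markers of blood cells were high in the same libraries. Of 41 listed, 24 reached 1 FPKM, and their summed level was 1867 and 1835 FPKM in the daidzein libraries and 1867 and 1823 FPKM in the DMSO libraries, against a sum over the 57 genes of 5.98 and 5.28 FPKM with daidzein and 6.56 and 5.89 FPKM with DMSO. Cpa3, a mast cell carboxypeptidase, stood at 496 ± 18.2 FPKM with daidzein and 467 ± 3.82 FPKM with DMSO (SD, n = 2 each). Gata2, a factor of blood progenitors and mast cells, averaged 244 FPKM and Ptprc, the leukocyte antigen CD45, 9.0 FPKM. At 0 reads were Itgam, Elane, Cd3e, Ncr1 and the mast cell genes Fcer1a, Mcpt4 and Tpsb2. Mast cell markers therefore went both ways, with Hdc at 0.0201 FPKM, Cma1 at 0.0505, Ms4a2 at 1.39 and Mitf at 7.02. Macrophage markers were mixed too. Csf1r had at most 2 reads per library, while Lyz2 averaged 0.893 FPKM and Adgre1 39.0 FPKM. Zbtb16, Klf2, Prdm1 and Tert are also known from blood cells, and the part of blood cells in their reads was not tested. Of 25 ovarian and stromal markers 13 had 0 reads, among them Foxl2, the granulosa cell factor, and 1, Star, reached 1 FPKM. Of other ovarian somatic cell markers, Fshr and Cyp19a1 had 0 reads, while Amh averaged 0.979 FPKM. Their summed level was 2.21 and 3.42 FPKM in the daidzein libraries and 3.01 and 2.86 FPKM in the DMSO libraries.

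Genes that repress germline promoters were expressed throughout. All 20 listed reached 1 FPKM, with a median of 20.3 FPKM. By edgeR 0 of the 20 were called at an adjusted p of 0.05, against 0.0171% of all genes tested. By direction, 8 were higher with daidzein and 12 lower. Dnmt1, the maintenance DNA methyltransferase, stood at 63.7 ± 2.74 FPKM with daidzein and 64.9 ± 3.70 FPKM with DMSO (SD, n = 2 each). E2f6, a repressive member of the E2f family, stood at 8.51 ± 0.302 FPKM with daidzein and 8.65 ± 0.303 FPKM with DMSO. Mga, the scaffold of the complex, averaged 2.92 FPKM. Whether these proteins bear on the silent genes was not tested.

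RefSeq promoter windows of GRCm38.p6, 250 bases before to 50 after a gene's start, were at hand for 44 of the 57 genes. The ratio of observed to expected CpG, which is low where methylation has eroded CpG over evolution, had a median of 0.716 in 11 windows of genes with over 3 reads, 0.615 in 9 with 1 to 3 reads and 0.483 in 24 with 0 reads. Over protein-coding genes the medians were 0.764 with over 3 reads and 0.229 with 0 reads. Ddx4, Klf4 and Id4, at or near 0 reads, had ratios of 0.978, 0.974 and 0.988. The oocyte group was the poorest in CpG, with a median of 0.326 over 8 windows. These are descriptions with no test.

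**Figure D5:**
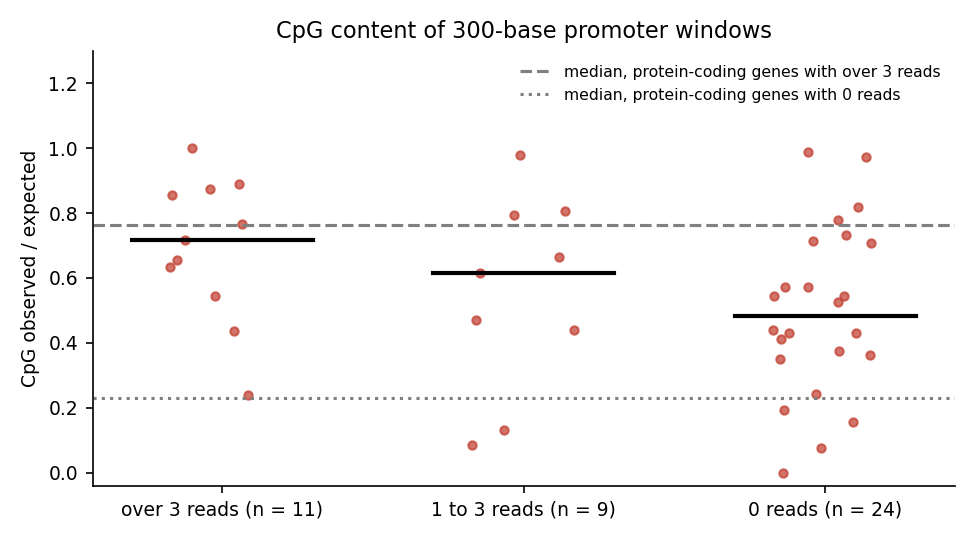
Ratio of observed to expected CpG in 300-base promoter windows (vertical axis) for the genes in each read class (horizontal axis), with black lines at class medians and grey lines at medians of protein-coding genes. The class medians of 0.716, 0.615 and 0.483 all lie above the median of 0.229 of protein-coding genes with 0 reads.

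The letters CACGTG, the E-box bound by Max dimers such as Mga and Max, were in 11 of the 44 windows (25%), against 8.1% of 16784 protein-coding windows. TCCCGC, the core of E2f6 sites, searched on both strands, was in 14 (31.8%), against 26.4%. Both were in 7 (15.9%), against 2.8%: Ddx4, Hormad1, Klf4, Mael, Sycp1, Sycp3 and Zp3. The 2 motifs share no overlapping letters in these windows. Among the 24 genes with 0 reads CACGTG was in 7 (29.2%), against 5.2% of protein-coding windows with 0 reads. Among the 9 with 1 to 3 reads it was in 3 (33.3%). Among the 11 with over 3 reads it was in 1, Sycp1 (9.1%), against 10.1%. For TCCCGC the counts with 0 and with over 3 reads were 4 of 24 (16.7%) and 6 of 11 (54.5%), against 13.1% and 35.2%. With 1 to 3 reads it was 4 of 9 (44.4%). The TCCCGC split thus ran the same way over all protein-coding genes. A match is a description of letters, and binding was not measured.

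For 8 genes the 150 bases directly before the start hold a motif and lie outside every annotated exon. The 6 of these that belong to meiosis, the piRNA pathway or telomerase are shown, leaving out Klf4 and Lin28b, with motif letters in capitals (TCCCGC appears as GCGGGA where it lies on the other strand), 5′ to 3′ on the gene's strand, from RefSeq GRCm38.p6. Hormad1, Tdrd1, Tdrd9 and Dmc1 had 0 reads in every library, Sycp1 had 5 to 10 reads per library and Tert 51 to 64.
Hormad1 (chr3:95559527-95559676, plus strand): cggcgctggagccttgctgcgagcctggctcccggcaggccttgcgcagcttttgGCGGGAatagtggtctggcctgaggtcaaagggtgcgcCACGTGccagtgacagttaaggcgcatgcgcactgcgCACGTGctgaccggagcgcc
Tdrd1 (chr19:56826059-56826208, plus strand): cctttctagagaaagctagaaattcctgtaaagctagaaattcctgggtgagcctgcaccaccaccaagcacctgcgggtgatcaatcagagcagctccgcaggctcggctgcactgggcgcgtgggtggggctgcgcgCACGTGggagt
Tdrd9 (chr12:111971409-111971558, plus strand): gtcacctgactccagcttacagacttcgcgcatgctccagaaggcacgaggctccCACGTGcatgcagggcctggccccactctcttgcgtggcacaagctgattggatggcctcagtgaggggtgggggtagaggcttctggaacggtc
Dmc1 (chr15:79605110-79605259, minus strand): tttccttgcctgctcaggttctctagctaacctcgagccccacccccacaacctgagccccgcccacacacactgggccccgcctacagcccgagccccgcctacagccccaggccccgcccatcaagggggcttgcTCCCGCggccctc
Sycp1 (chr3:102936101-102936250, minus strand): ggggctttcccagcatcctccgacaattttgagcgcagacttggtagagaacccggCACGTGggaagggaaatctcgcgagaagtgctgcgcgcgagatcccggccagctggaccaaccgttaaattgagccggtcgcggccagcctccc
Tert (chr13:73626761-73626910, plus strand): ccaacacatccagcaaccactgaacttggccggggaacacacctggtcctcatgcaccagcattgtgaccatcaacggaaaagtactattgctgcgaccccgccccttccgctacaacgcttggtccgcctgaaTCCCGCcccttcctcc
Hormad1 holds CACGTG at 57 and 20 bases before the start and GCGGGA further upstream, Tdrd1 holds CACGTG next to its start, and Tert holds TCCCGC without CACGTG.

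The counting can hide some reads. Dppa3, Hormad1 and Tdgf1 each have a pseudogene with at least 95% identity over at least 50% of a transcript, so reads that fit both places may be missing. Those pseudogenes had 0 reads in every library too. Sall4 and Sycp3 also matched at these settings, to Gm14261 and Chpt1, whose exons overlap theirs on the opposite strand. Gm14261 had 0 reads, but Chpt1 had 109 to 141 reads per library, so Sycp3 reads may be missing as well. No such copy was found for Ddx4, Dazl, Pou5f1, Nanog, Zbtb16, Piwil2, Piwil4 or Tert at these settings.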

How the data were processed

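The 4 RNA sequencing libraries were grouped by their titles. The authors deposited whole-number read counts per gene, not normalized, and FPKM values. FPKM equalled count over exonic gene size and library total within 0.01 for 100% of values with a read, and levels were recomputed from the counts to avoid rounding. Per the submitters' processing notes the tools were DESeq2, HTSeq 0.6.1 and HISAT2 2.0.1 and a build was mm9, with no role given. Coordinates in the table are those of GRCm38, since 99.6% of 55141 genes matched to GENCODE M21 had the same start.

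All genes were tested with edgeR 4.0.16 (R 4.3.3), by the quasi-likelihood test with TMM, the default filterByExpr filter and Benjamini-Hochberg adjustment at 0.05, checked on simulated data. Intervals are 95%. Alternatives used DESeq2 1.42.0 and limma 3.58.1. Near-identical copies were searched with blastn 2.17.0. Chi-square per degree of freedom between libraries ran from 2.23 to 4.81 over genes with at least 40 reads, so all differed by more than counting error. Whether libraries came from the same culture cannot be told from these values. The 57 genes and all lists were chosen with earlier results of these data known. All genes with over 3 reads are named with their reads in every library, the others by class, and of comparison lists mainly the highest. Further genes were picked with their values known. No promoter sequence was used for Bcl6b, Dnd1, Dppa3, Gdf9, Mos, Piwil2, Prdm14, Sall4, Spo11, Tfap2c, Zbtb16, Zp1 and Zp2.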

Additional observations from a re-analysis of the deposited data

How the results depend on the processing

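None of the 10 tested genes of the 57 passed under any alternative that could test them, by DESeq2, without a filter, with the replicate number as a block, by limma trend on log2(FPKM + 1) or log2(FPKM + 0.1), or with 1 library left out. The stricter filter of 5 CPM in 2 libraries left none of them to test. The count over all genes, 2, was 2 by DESeq2, 11 without a filter, 1 with the stricter filter, 27 with the replicate block, 0 by limma with either pseudocount, and 4 to 17 with 1 library left out, where a lone library is assumed to vary like the others. The cause was not tested. Samples share only a number, with a correlation of same-numbered deviations of 0.09 over genes in 2 pairs. Chi-square per degree of freedom was lowest in the same-numbered pairs, at 2.23 for number 2 and 3.51 for number 1. Within groups it was 4.38 for daidzein and 4.17 for DMSO. Whether same-numbered libraries belong together is not labelled, so the block is an alternative. The median log2 difference of the 10, -0.09, ran from -0.17 to 0.03. Piwil2 and Tert kept their direction in all 9 alternatives, and 8 of the 10 changed it at least once with no call, Gdf9 between -1.24 and 1.70. Of the 57, 0 averaged 1 FPKM, while 5 averaged 0.5 FPKM and 6 averaged 1 CPM. Genes with 0 reads numbered 31, or 32 to 34 over any 3 libraries, and 37 had at most 1 read.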
